A study of Mus musculus with 8 samples.

Results

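Smooth muscle contractile genes are described here in *Hira*-null and wild type (WT) mouse embryonic stem cells (mESCs) and in the differentiated cardiomyocyte cultures made from them. The members were chosen by gene symbol as the rows of the deposited expression table named *Acta2*, *Tagln*, *Myh11*, *Cnn1*, *Smtn*, *Myocd*, *Actg2*, *Lmod1*, *Mylk* and *Cald1*. All 10 were found among the 24421 genes of the table. Smooth muscle contracts when calcium activates a kinase that phosphorylates myosin light chains, after which smooth muscle myosin pulls on filaments of smooth muscle actin. The genes of this machinery share DNA elements called CArG boxes, which bind the factor SRF, and the muscle coactivator myocardin acts through SRF on them. Smooth muscle genes are also switched on for a time in the embryonic heart, and actin and transgelin of this type are found in many stromal cells.

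*Hira* encodes a chaperone that loads the histone H3.3 onto DNA independently of replication. Messenger RNA was sequenced for 4 groups of 2 libraries, 8 in all: day 15 cultures labelled *Hira*-null, day 15 WT cultures, *Hira*-null mESCs at day 0 and WT mESCs at day 0. The *Hira*-null cells are a single clone (Clone104), the WT cells are the W9.5 line, and both carry HA-tagged H3.3. With a single line per genotype, an effect of genotype cannot be told apart from other differences between the lines. The p-values below measure the spread between samples of the same line. Day 15 cells came from hanging drops and were beating cultures of mixed cells rather than a sorted cell type, while day 0 cells were undifferentiated. Levels are FPKM, the fragments counted for a gene scaled by gene length and library size, so that levels of different genes can be set side by side. Libraries held 6896436 to 11087816 fragments. A difference was called when limma on log2(FPKM + 1) gave an adjusted p of 0.05 or less over 14337 genes, those that reached FPKM 1 in 2 or more libraries. All 10 members passed that filter, but *Myh11*, *Myocd*, *Actg2* and *Mylk* reached FPKM 1 in day 15 libraries alone. *Hira* itself was at 12.4 and 11.4 FPKM in *Hira*-null mESCs, against 27.3 and 28.5 FPKM in WT mESCs (log2 fold change −1.17 ± 0.10 SE, adjusted p = 8.48e-05). At day 15 it was at 16.7 and 19.8 FPKM in the libraries labelled *Hira*-null, against 15.8 and 15.5 FPKM in WT, a difference of 0.20 ± 0.11 that did not pass (adjusted p = 0.167). The level of *Hira* therefore does not check the label at day 15. *Gata6*, a factor described below, was lower under the *Hira*-null label at both days, at 3.79 and 2.76 FPKM, against 28.0 and 23.5 FPKM in WT at day 15, and at 1.37 and 1.85 FPKM, against 10.6 and 10.4 FPKM in WT at day 0. Every direction at day 15 below is that of the libraries labelled *Hira*-null.

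**Figure D1:**
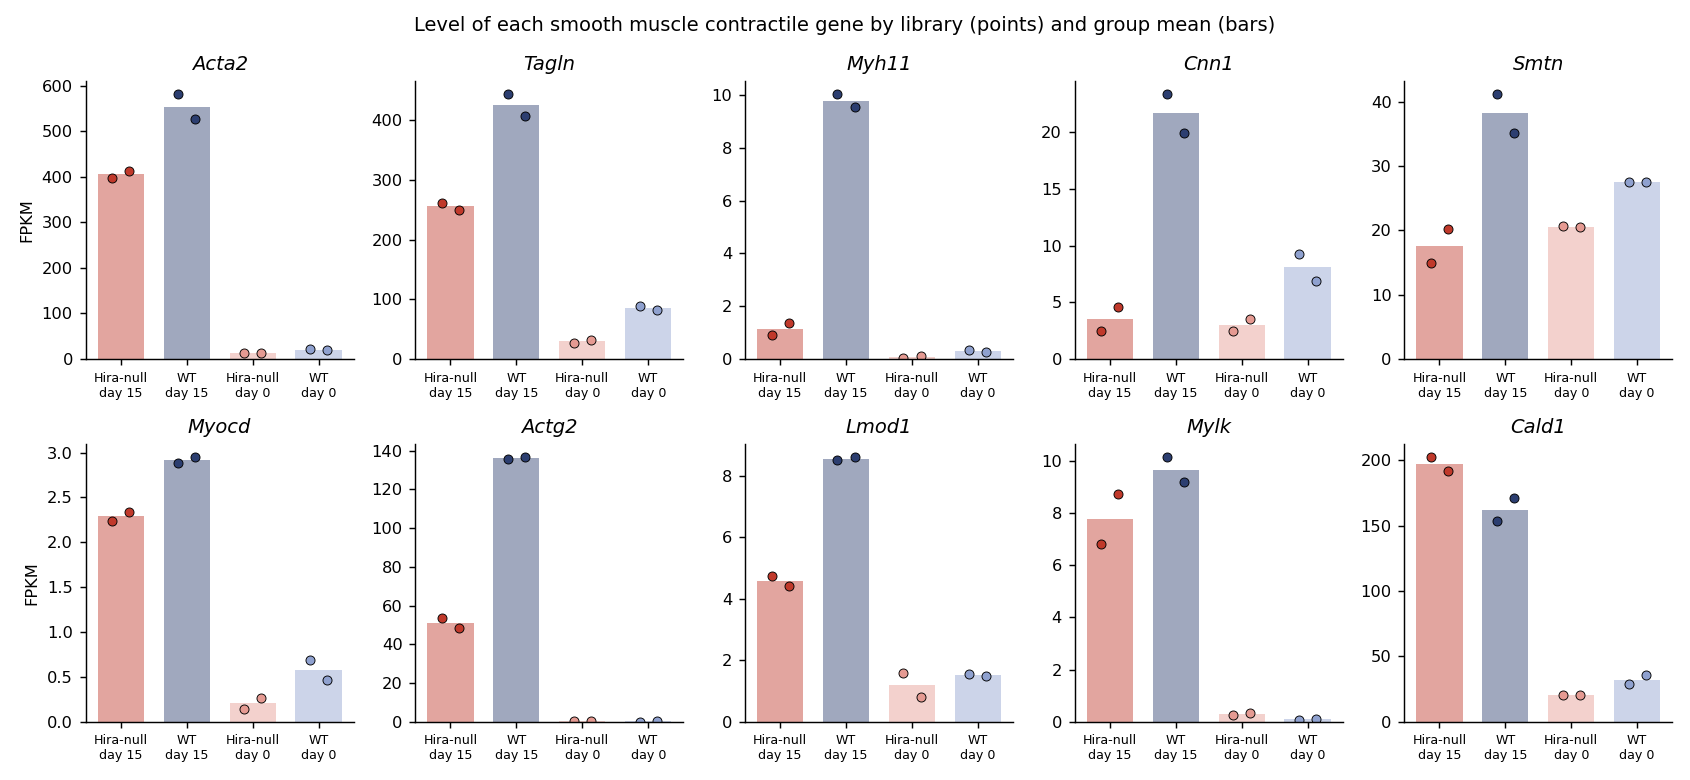
Level of each of the 10 genes in FPKM (vertical axis, a scale for each gene) in 8 libraries, shown as points, with bars for the mean of each group of 2. At day 15 the points labelled Hira-null lay below both WT points in 9 panels and above them for Cald1, and Actg2 was at 53.3 and 48.5 FPKM in the libraries labelled Hira-null, against 136 and 137 FPKM in WT.

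At day 15, 7 of the 10 genes were lower in the cultures labelled *Hira*-null than in WT cultures and 0 were higher, with 3 that did not pass the test. Over all genes tested, 18.8% were called lower and 18.6% higher. The members lower by 2-fold or more were *Cnn1*, *Myh11*, *Actg2* and *Smtn*, 4 in all, where 4.08% of all genes were lower by that much. In 9 of the 10 both libraries labelled *Hira*-null lay below both WT libraries, which 34.3% of all genes did, and for *Cald1* both lay above, which 35.8% of all genes did. The median log2 fold change was −0.75 over the members and 0.01 over all genes tested. In cultures of mixed cells, fewer cells of a type and less RNA per cell cannot be told apart.

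The actins form the thin filaments. *Acta2*, on chromosome 19 (chr19:34315580-34329826, minus strand, mm9), encodes the actin of vascular smooth muscle, and *Actg2* (chr6:83462899-83486259, minus strand) that of gut smooth muscle. They are close copies of the skeletal actin *Acta1* and the cardiac actin *Actc1*, so the start of each coding sequence is shown to compare what reads could tell apart. The first 60 coding bases are from GENCODE M1 transcripts, and capitals mark bases that differ from *Acta2* in an alignment of the whole coding sequences, in which gaps are not marked.
Acta2: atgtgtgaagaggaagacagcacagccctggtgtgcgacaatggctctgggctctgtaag
Actg2: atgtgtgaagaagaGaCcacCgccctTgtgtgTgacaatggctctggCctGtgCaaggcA
Acta1: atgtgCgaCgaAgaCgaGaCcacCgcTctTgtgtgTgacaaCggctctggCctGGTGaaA
Actc1: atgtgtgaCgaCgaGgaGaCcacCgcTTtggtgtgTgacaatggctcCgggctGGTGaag
Over the coding sequence, 84.2% of aligned bases were identical to *Acta2* in *Actg2*, 85.4% in *Acta1* and 82.5% in *Actc1*. Of the 1732 stretches of 50 bases in the *Acta2* transcript 7 occurred unchanged in a transcript of another gene, and of the 1284 in *Actg2* 0 did.

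*Acta2* was the highest of the members, at 398 and 413 FPKM in the day 15 libraries labelled *Hira*-null, against 581 and 526 FPKM in WT. The groups did not overlap, and *Acta2* fell to 73.3% of the WT mean (log2 fold change −0.45 ± 0.07, adjusted p = 0.00182). *Actg2* was at 53.3 and 48.5 FPKM in the libraries labelled *Hira*-null, against 136 and 137 FPKM in WT. Its level was 37.4% of the WT mean (−1.40 ± 0.19, adjusted p = 0.000803), a call that was lost with a pseudocount of 0.1 in place of 1 (adjusted p = 0.1296). The gut type actin thus stood further below WT than the vascular type, with *Actg2* at 13.4% and 11.7% of the *Acta2* level in the libraries labelled *Hira*-null, against 23.4% and 26.0% in WT.

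The thick filament and the enzyme that activates it moved by different amounts. *Myh11* (chr16:14194620-14291501, minus strand) encodes the smooth muscle myosin heavy chain, the most restricted marker of this tissue. It was at 0.897 and 1.38 FPKM in the libraries labelled *Hira*-null, from 53 and 87 fragments, against 10.04 and 9.56 FPKM in WT, from 627 and 743 fragments. Both libraries labelled *Hira*-null were far under WT, at 11.6% of the WT mean, and the log2 fold change was −2.35 ± 0.17 (adjusted p = 5.27e-05). *Mylk* (chr16:34745296-35002520, plus strand), the myosin light chain kinase, was at 6.83 and 8.72 FPKM, against 10.2 and 9.19 FPKM in WT. These values lay close together and the difference of −0.29 ± 0.17 did not pass (adjusted p = 0.203), while voom on the recovered fragments gave −0.33 (adjusted p = 0.0208).

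The proteins that bind the thin filament included both the member with the lowest log2 fold change and the sole member above WT. *Cnn1* (chr9:21903725-21914074, plus strand), the calponin of differentiated smooth muscle, was at 2.43 and 4.55 FPKM in the libraries labelled *Hira*-null, from 43 and 86 fragments, against 23.3 and 20.0 FPKM in WT. At 16.1% of the WT mean it had the lowest log2 fold change of the members, −2.37 ± 0.25 (adjusted p = 0.000212). Of all genes tested 0.2999% had a lower value. *Myh11*, at −2.35 ± 0.17, was not apart from it within these errors and was lower as a ratio of means, at 11.6% of WT. *Tagln* (chr9:45737711-45744141, minus strand), transgelin, an actin crosslinker also called SM22 alpha, was at 262 and 250.1 FPKM, against 443 and 406 FPKM in WT. The groups were well apart and *Tagln* fell to 60.3% of WT (−0.73 ± 0.08, adjusted p = 0.00033). *Smtn* (chr11:3417526-3440615, minus strand), smoothelin, a protein of contractile smooth muscle cells, was at 14.96 and 20.2 FPKM, against 41.2 and 35.2 FPKM in WT (−1.09 ± 0.14, adjusted p = 0.000464). *Cald1* (chr6:34548500-34725473, plus strand), caldesmon, restrains the myosin motor and has a form in most other cells. It was at 202 and 192 FPKM in the libraries labelled *Hira*-null, against 153 and 171 FPKM in WT. Both of the first pair lay above both WT libraries, but the difference of 0.28 ± 0.10 did not pass (adjusted p = 0.058). It passed when the day 15 groups were fitted alone (adjusted p = 0.0473) and with voom (adjusted p = 0.000576). The annotation places 65 exon bases of *Pcsk7* on the other strand of *Tagln* (4.10% of its exon bases) and 714 of *Gm11946* on that of *Smtn* (16.3%), and the sources used here do not say whether counting used the strand.

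*Lmod1* (chr1:137221384-137264642, plus strand), leiomodin, starts actin filaments in smooth muscle. It was at 4.75 and 4.42 FPKM in the libraries labelled *Hira*-null, against 8.51 and 8.62 FPKM in WT, and fell to 53.6% of the WT mean (−0.78 ± 0.19, adjusted p = 0.0118). The call was lost without WT replicate 1 (adjusted p = 0.103) and without WT replicate 2 (adjusted p = 0.11). *Myocd* (chr11:64990063-65083491, minus strand) encodes myocardin, the coactivator that drives the other genes. It was at 2.24 and 2.34 FPKM, from 102 and 114 fragments, against 2.88 and 2.95 FPKM in WT, from 139 and 177 fragments. The libraries labelled *Hira*-null were both the lower, at 78.4% of the WT mean, but the difference of −0.25 ± 0.16 did not pass (adjusted p = 0.257).

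**Figure D2:**
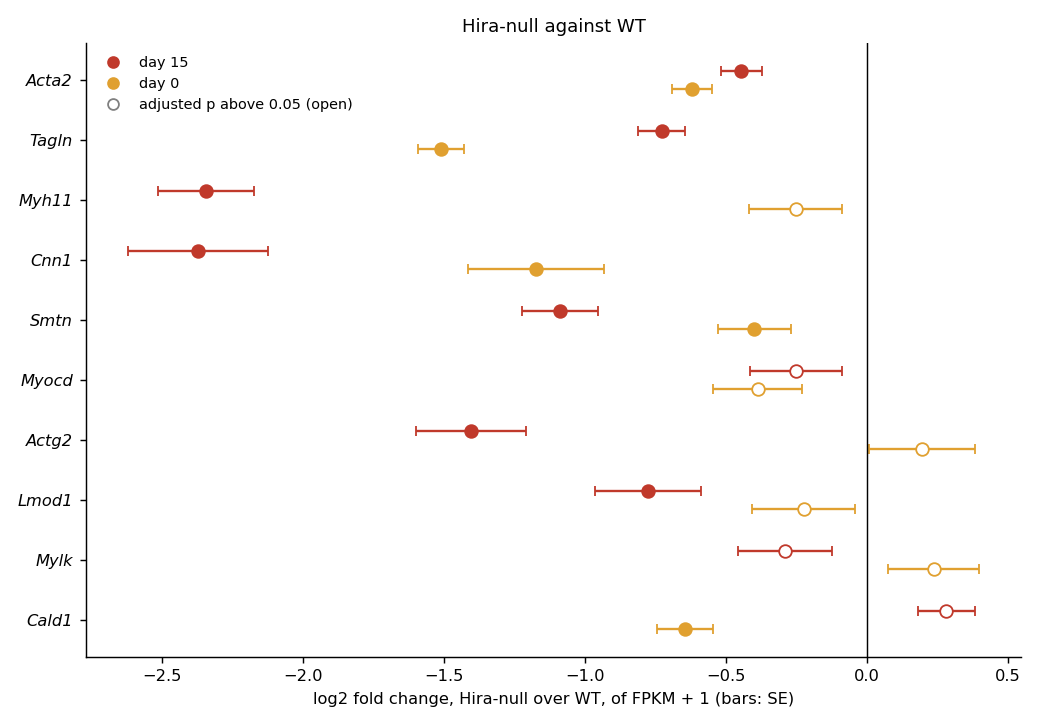
Log2 fold change of FPKM + 1, Hira-null over WT (horizontal axis), for each of the 10 genes at day 15 and at day 0, with bars of 1 SE and open points where the adjusted p was above 0.05. Cnn1 and Myh11 stood at −2.37 and −2.35 at day 15, and Tagln at −1.51 was the lowest at day 0.

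Before differentiation, 5 of the 10 genes were lower in *Hira*-null than in WT mESCs and 0 were higher, beside 19.4% of all genes lower and 20.8% higher. *Tagln* was at 27.6 and 31.4 FPKM in *Hira*-null mESCs, against 89.0 and 82.8 FPKM in WT mESCs. On the log2(FPKM + 1) scale this was the largest day 0 difference of the members (−1.51 ± 0.08, adjusted p = 1.05e-05), and *Tagln* was at 34.4% of the WT mean. As ratios of means *Myh11*, at 28.4% of WT, and *Mylk*, at 325%, lay further from WT, both under FPKM 1 at this stage. *Cnn1* was at 2.49 and 3.55 FPKM, against 9.30 and 6.85 FPKM in WT (−1.17 ± 0.24, adjusted p = 0.00498). *Acta2*, a low gene at this stage, was at 13.5 and 12.9 FPKM, against 21.3 and 20.4 FPKM in WT (−0.62 ± 0.07, adjusted p = 0.000272). *Cald1* was at 20.2 and 20.1 FPKM, against 29.0 and 35.5 FPKM in WT, so that it stood below WT at day 0 (−0.65 ± 0.10, adjusted p = 0.00119). *Smtn* was at 20.6 FPKM in both *Hira*-null libraries, against 27.5 FPKM in both WT libraries (−0.40 ± 0.13, adjusted p = 0.0385). Without any 1 of the 4 day 0 libraries the *Smtn* call was lost (adjusted p of 0.0930 to 0.1496).

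The other 5 members were low at day 0 and none of them passed. *Myh11* was at 0.0439 and 0.1201 FPKM in *Hira*-null mESCs, against 0.328 and 0.2499 FPKM in WT mESCs, which were 2 and 7 fragments against 16 and 14. *Myocd* was at 0.142 and 0.267 FPKM, against 0.690 and 0.463 FPKM in WT (−0.39 ± 0.16, adjusted p = 0.0833). Both were lower in each *Hira*-null library, yet log2(FPKM + 1) can show little of a difference at such low levels, and few fragments stood behind them. *Mylk* was at 0.242 and 0.321 FPKM in *Hira*-null mESCs, against 0.0522 and 0.121 FPKM in WT mESCs, which were 13 and 22 fragments against 3 and 8. *Lmod1* was at 1.59 and 0.808 FPKM, against 1.55 and 1.501 FPKM in WT, and the groups overlapped. *Actg2* was at 0.332 and 0.519 FPKM, against 0 and 0.540 FPKM in WT, where a count of 0 allows up to 3 fragments or 0.310 FPKM. With a pseudocount of 0.1 the day 0 differences of *Myh11* (−1.12, adjusted p = 0.0492), *Myocd* (−1.16, adjusted p = 0.0317) and *Mylk* (1.05, adjusted p = 0.0303) passed. Without WT replicate 2 *Actg2* was called higher (0.51, adjusted p = 0.0204), a value set by the pseudocount since the remaining WT library was at 0.

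The genotype effects at both days were then set against each other in a test of their difference, day 15 minus day 0. Of the 10 members 4 had a lower effect at day 15 and 2 a higher one, beside 17.7% and 17.5% of all genes. Of the 4, *Myh11* and *Actg2* were under FPKM 1 in every day 0 library, where log2(FPKM + 1) can show little of a genotype effect, so that their difference between the days was largely set by day 15 and is given as a description. *Myh11* (−2.09 ± 0.24, adjusted p = 0.00056), *Actg2* (−1.60 ± 0.27, adjusted p = 0.00275), *Cnn1* (−1.20 ± 0.35, adjusted p = 0.0268) and *Smtn* (−0.69 ± 0.19, adjusted p = 0.0217) stood further below WT at day 15. Without day 15 WT replicate 1 this count was 2, as *Cnn1* (adjusted p = 0.129) and *Smtn* (adjusted p = 0.0986) were lost. The *Cnn1* call was also lost without day 15 WT replicate 2, day 15 *Hira*-null replicate 1, or replicate 2 of either day 0 group (adjusted p of 0.0664 to 0.0905), and that of *Smtn* without either *Hira*-null mESC library (0.0633 and 0.0655). With a pseudocount of 0.1 the calls of *Actg2* (adjusted p = 0.0827) and *Cnn1* (adjusted p = 0.0552) were lost, and without a filter on low values that of *Cnn1* (adjusted p = 0.0554). As a ratio of means *Myh11* was at 11.6% of WT at day 15 and 28.4% at day 0, and with voom its difference between days did not pass (adjusted p = 0.195), while that of *Actg2* was −2.87 (adjusted p = 0.0495). *Tagln* (0.78 ± 0.12, adjusted p = 0.0016) stood nearer to WT at day 15, at 60.3% of WT against 34.4% at day 0. *Cald1* (0.93 ± 0.14, adjusted p = 0.00183) was at 122% of WT at day 15 and 62.5% at day 0. For *Acta2*, *Myocd*, *Lmod1* and *Mylk* the difference did not pass, and that of *Acta2* was 0.18 ± 0.10 (adjusted p = 0.209). *Lmod1* passed with a pseudocount of 5 (−0.42, adjusted p = 0.01997) and without *Hira*-null mESC replicate 2 (−0.81, adjusted p = 0.0335). *Mylk*, at −0.53 in the fit used here, passed with a pseudocount of 0.1 (−1.37, adjusted p = 0.0466) and with voom (−2.07, adjusted p = 0.0439).

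**Figure D3:**
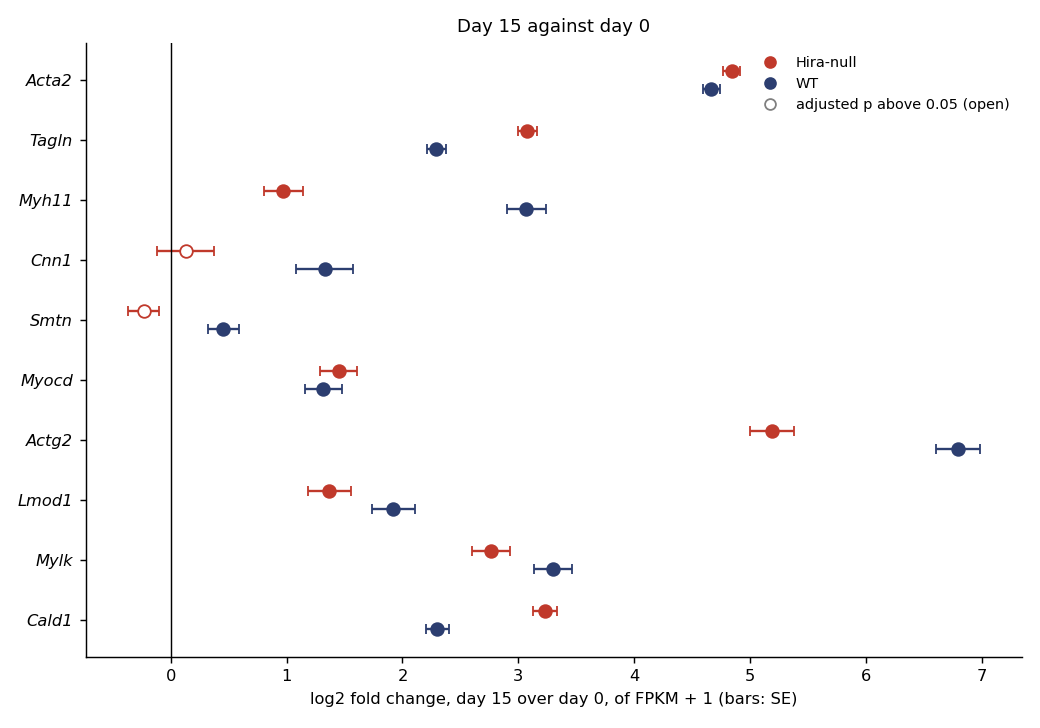
Log2 fold change of FPKM + 1, day 15 over day 0 (horizontal axis), for each of the 10 genes in Hira-null and in WT, with bars of 1 SE and open points where the adjusted p was above 0.05. Cnn1 and Smtn are the open points, at 0.13 and −0.23 in Hira-null, and Actg2 is farthest to the right at 5.19 in Hira-null and 6.79 in WT.

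Between day 0 and day 15, 8 of the 10 genes rose in *Hira*-null cells and 10 of 10 in WT cells. Over all genes 37.5% were higher and 36.4% lower at day 15 in *Hira*-null, and 36.1% were higher and 33.4% lower in WT, while 0 members were lower in either. *Myh11*, *Myocd*, *Actg2* and *Mylk* passed the filter through their day 15 libraries, so their rise was bound to be seen and is given as a description. Both comparisons use the same libraries as those above, and the values are given side by side. *Acta2* rose by 4.84 ± 0.07 in *Hira*-null cells and 4.67 ± 0.07 in WT cells on the log2 scale, which took it to rank 62 and 64 of all genes in the libraries labelled *Hira*-null at day 15, and to 46 and 50 in WT. *Tagln* rose by 3.08 ± 0.08 in *Hira*-null and 2.29 ± 0.08 in WT, and *Cald1* by 3.23 ± 0.10 and 2.30 ± 0.10 in the same order. *Lmod1* rose by 1.37 ± 0.19 in *Hira*-null and 1.92 ± 0.19 in WT.

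*Cnn1* and *Smtn* were the members without a call in *Hira*-null cells. *Cnn1* was at 2.43 and 4.55 FPKM in the day 15 libraries labelled *Hira*-null, against 2.49 and 3.55 FPKM in *Hira*-null mESCs, and these overlapped (0.13 ± 0.24, adjusted p = 0.646). In WT it rose to 23.3 and 20.0 FPKM at day 15, against 9.30 and 6.85 FPKM at day 0 (1.33 ± 0.24, adjusted p = 0.00111). *Smtn* was at 14.96 and 20.2 FPKM at day 15, against 20.6 FPKM in both day 0 libraries of *Hira*-null (−0.23 ± 0.13, adjusted p = 0.141). In WT it was at 41.2 and 35.2 FPKM at day 15, against 27.5 FPKM at day 0 (0.46 ± 0.13, adjusted p = 0.0132), a call lost without day 15 replicate 1 (adjusted p = 0.113). Without *Hira*-null day 15 replicate 2, *Smtn* was called lower at day 15 in *Hira*-null (−0.44, adjusted p = 0.00979). Scaling each library to TPM moved the median of all genes by 0.49 in *Hira*-null and 0.44 in WT between the days. The genes called higher and lower at day 15 were then 7601 and 3269 in *Hira*-null, in place of 5382 and 5215, and 7400 and 2824 in WT, in place of 5175 and 4786. Under this scaling *Smtn* in *Hira*-null had a positive value, 0.28, which did not pass (adjusted p = 0.0805). Over the 4 groups the levels of *Acta2*, *Tagln*, *Myh11* and *Myocd* were highest in day 15 WT, then in day 15 *Hira*-null, in WT mESCs and in *Hira*-null mESCs, with no overlap of neighbours. The share of all genes with this order was not counted. *Myh11* and *Myocd* passed the filter through day 15, so their step between the days was bound to be seen. Their order at day 0 rests on 2 and 7 fragments in *Hira*-null, against 16 and 14 in WT, and on 5 and 12, against 26 and 20. For *Actg2* and *Lmod1* the day 0 groups overlapped, and for *Cnn1* the *Hira*-null groups of both days did.

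Within their gene families the smooth muscle members took a smaller share in the libraries labelled *Hira*-null at day 15 than in WT. *Acta2* made up 13.1% and 13.2% of the summed FPKM of 6 actin genes, against 16.8% and 16.1% in WT, and *Actb*, the actin of nearly every cell, 73.1% and 72.9%, against 64.5% and 65.6%. *Actb* itself did not pass the test between genotypes (0.04 ± 0.06, adjusted p = 0.609). *Myh11* made up 0.268% and 0.331% of the myosin heavy chains *Myh9*, *Myh10*, *Myh11* and *Myh14*, against 2.32% and 2.37% in WT. Unlike the sum of the actins, this sum left out the genes of striated muscle. *Cnn1* took 0.566% and 1.09% of the calponins, against 6.50% and 5.94% in WT, while *Cnn3*, the calponin of non-muscle cells and neurons, took 63.6% and 59.6%, against 45.3% and 47.9%. *Tagln* held 68.4% and 66.8% of the transgelins, against 78.3% in both WT libraries. In every one of these shares the groups were apart. At day 0 *Tagln* held 7.40% and 8.14% in *Hira*-null mESCs, against 25.4% and 26.3% in WT mESCs, and *Cnn1* 0.891% and 1.27%, against 3.71% and 2.64%.

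**Figure D4:**
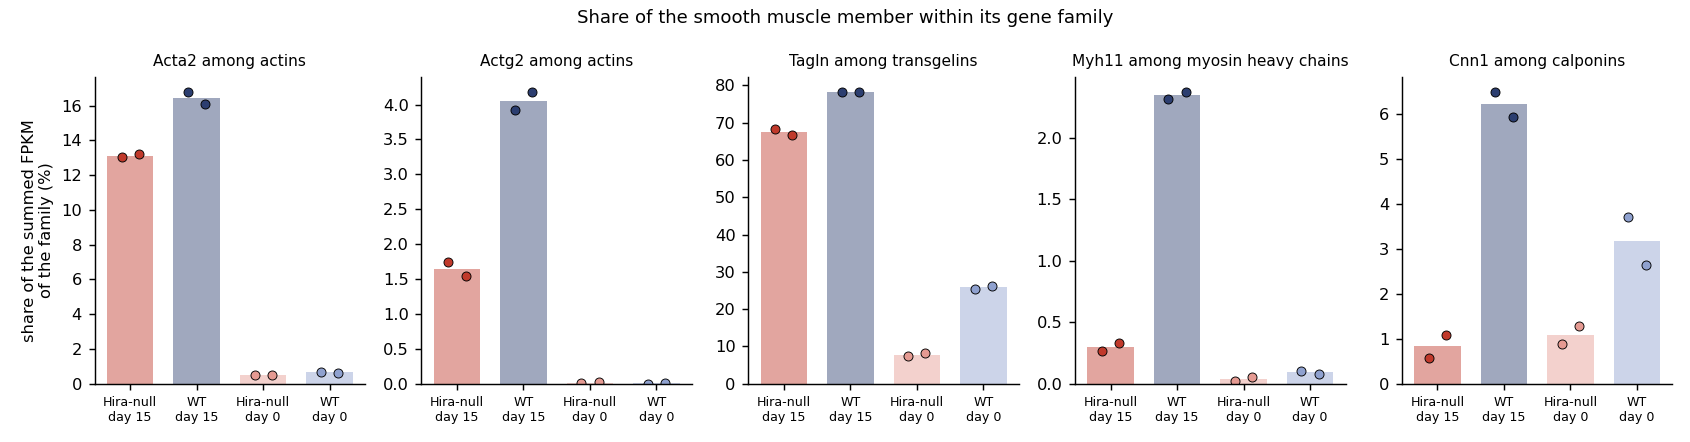
Share of the summed FPKM of its gene family, in percent (vertical axis, a scale for each panel), taken by 5 members in each library (points), with bars for the mean of each group of 2. At day 15 Myh11 took 0.268% and 0.331% of the myosin heavy chains in the libraries labelled Hira-null, against 2.32% and 2.37% in WT. The myosin heavy chains summed here are Myh9, Myh10, Myh11 and Myh14, without those of striated muscle.

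Of the 18 paralogs, genes of the same families that are not specific to smooth muscle, 14 were tested. At day 15, 5 of them were lower in the libraries labelled *Hira*-null and 2 were higher, beside 18.8% and 18.6% of all genes. *Myh10*, a non-muscle myosin, was lower (−0.56 ± 0.09, adjusted p = 0.00136) as was *Actc1* (−0.84 ± 0.24, adjusted p = 0.0236), and *Smtnl2*, a smoothelin-like gene, was the lowest (−1.24 ± 0.12, adjusted p = 0.000126). *Actg1* (−0.32 ± 0.07) and *Mylk3*, the kinase of cardiac muscle (−0.55 ± 0.18), were the other 2. *Mylk3* reached FPKM 1 in the WT day 15 libraries alone, so its direction was bound to be seen. *Tagln3*, the transgelin of neurons, was at 24.2 and 30.1 FPKM in the libraries labelled *Hira*-null, against 12.5 and 9.76 FPKM in WT (1.22 ± 0.22, adjusted p = 0.00271). *Cnn3* was at 273 and 247 FPKM, against 163 and 161 FPKM in WT (0.68 ± 0.07, adjusted p = 0.000237). The median over the paralogs tested was −0.02. Without WT replicate 1, 2 paralogs were lower, and without WT replicate 2, 3 were lower and 1 was higher.

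Over all genes tested, 18.8% were lower and 18.6% higher at day 15. Of 11 regulators of smooth muscle genes, 4 were lower and 1 higher at day 15 in the libraries labelled *Hira*-null, with a median of −0.24. *Srf* was at 21.8 and 24.8 FPKM in these, against 22.4 and 20.8 FPKM in WT, which overlapped (0.10 ± 0.11, adjusted p = 0.513). *Mkl1*, a coactivator of SRF in many cell types, was at 16.4 and 20.3 FPKM, against 13.7 and 12.0 FPKM in WT (0.48 ± 0.13, adjusted p = 0.0211), and its call was lost without WT replicate 1, WT replicate 2 or *Hira*-null replicate 2. *Gata6*, a zinc finger factor of vascular smooth muscle and endoderm, was at 3.79 and 2.76 FPKM, against 28.0 and 23.5 FPKM in WT (−2.65 ± 0.17, adjusted p = 2.82e-05). *Mef2c*, a factor of striated and smooth muscle, was lower as well (−0.94 ± 0.16, adjusted p = 0.00213). *Klf4*, known to oppose myocardin in vascular smooth muscle (−0.52 ± 0.09, adjusted p = 0.002), and the LIM protein *Csrp2* (−0.30 ± 0.10, adjusted p = 0.038) completed the 4. *Gata6* was also lower at day 0 (−2.15, adjusted p = 4.24e-05).

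The wider contraction apparatus held 30 genes, of which 29 were tested. At day 15, 8 were lower and 5 higher in the libraries labelled *Hira*-null, beside 18.8% and 18.6% of all genes. The median was −0.15. *Des*, the intermediate filament desmin, was at 1.61 and 2.95 FPKM, against 24.8 and 25.8 FPKM in WT (−3.03 ± 0.19, adjusted p = 2.82e-05). *Gucy1a3* (−1.94 ± 0.17, adjusted p = 9.88e-05) and *Gucy1b3* (−2.46 ± 0.19, adjusted p = 6.02e-05), the subunits of the nitric oxide receptor that relaxes smooth muscle, were lower together. *Gucy1a3* reached FPKM 1 in the WT day 15 libraries alone, so its direction was bound to be seen. *Synpo2* was lower too (−1.45 ± 0.19, adjusted p = 0.000665). In the other direction, the light chain *Myl6* (0.66 ± 0.07, adjusted p = 0.000183), the tropomyosin *Tpm1* (0.61 ± 0.08, adjusted p = 0.000455) and the filament protein *Synm* (1.12 ± 0.18, adjusted p = 0.00176) were higher. *Myl9*, the regulatory light chain that *Mylk* phosphorylates, was at 107 and 119.6 FPKM, against 145 and 137 FPKM in WT (−0.32 ± 0.11, adjusted p = 0.0494). *Flna*, *Actn1*, *Vcl*, *Rhoa* and *Ppp1cb* did not pass. The counts moved with the fit, to 3 higher and 5 lower without WT replicate 1 or WT replicate 2, to 3 higher without *Hira*-null replicate 2, and to 13 lower with voom.

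Markers of other cells of such cultures moved with the genotype at day 15 too. The counts below stand beside 18.8% lower and 18.6% higher among all genes tested. Some markers reached FPKM 1 in the day 15 libraries of a single genotype label alone, so their direction was bound to be seen. Of 9 fibroblast and mesenchyme markers, 8 were lower and 0 were higher in the libraries labelled *Hira*-null, and their summed level was 698 and 885 FPKM, against 2298 and 2068 FPKM in WT. Of 8 pericyte markers, 7 were tested and 5 were lower, with sums of 94.7 and 104 FPKM, against 141 and 132 FPKM in WT. Of 10 cardiomyocyte markers, 4 were lower and 1 was higher, with sums of 148 and 154 FPKM, against 229 and 218 FPKM in WT. Sums follow the highest genes of a list, and here these went both ways. As group means *Myl7* was at 12.1 FPKM, against 66.9 FPKM in WT, and *Tnnt2* at 58.8 FPKM, against 39.9 FPKM. *Tnnt2* did not pass, and the 1 called higher was another marker, higher by 2-fold or more. That marker reached FPKM 1 in the day 15 libraries labelled *Hira*-null alone, and with the filter in 4 libraries 0 were called higher. Endothelial markers were lower for 5 of 7 (sums of 15.4 and 16.8 FPKM, against 41.5 and 41.8 FPKM), epicardial markers for 4 of 6 with 2 higher (9.83 and 9.47 FPKM, against 31.6 and 33.1 FPKM) and visceral endoderm markers for 4 of 5 (4.41 and 3.60 FPKM, against 102 and 99.0 FPKM). Skeletal muscle markers were lower for 5 of the 6 tested, with 1 higher (18.7 and 17.7 FPKM, against 23.2 and 25.3 FPKM). Several of the 5 passed the filter through the WT day 15 libraries alone, and with the filter in 4 libraries 2 were lower. In the libraries labelled *Hira*-null that sum was mostly *Mylpf*, at a mean of 16.8 FPKM, against 9.33 FPKM in WT. Neural markers were higher for 6 of 7 (327 and 344 FPKM, against 147 and 151 FPKM), and pluripotency markers were higher for 2 and lower for 2 of 5 (228 and 243 FPKM, against 207 and 193 FPKM). Among these lists, at day 15 *Afp* of the visceral endoderm was at 0 in 1 of the libraries labelled *Hira*-null and at 0.108 FPKM in the other, against 54.4 and 56.1 FPKM in WT. The summed level of the 10 smooth muscle genes was 948 and 945 FPKM, against 1410 and 1325 FPKM in WT. Without either WT replicate, 2 cardiomyocyte markers were called lower, 0 epicardial markers higher and 1 pluripotency marker higher, and without WT replicate 1, 3 pericyte markers were lower. Without *Hira*-null replicate 2, 1 epicardial and 1 pluripotency marker were higher. The part of these other cells in the differences of the smooth muscle genes was not tested.

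**Figure D5:**
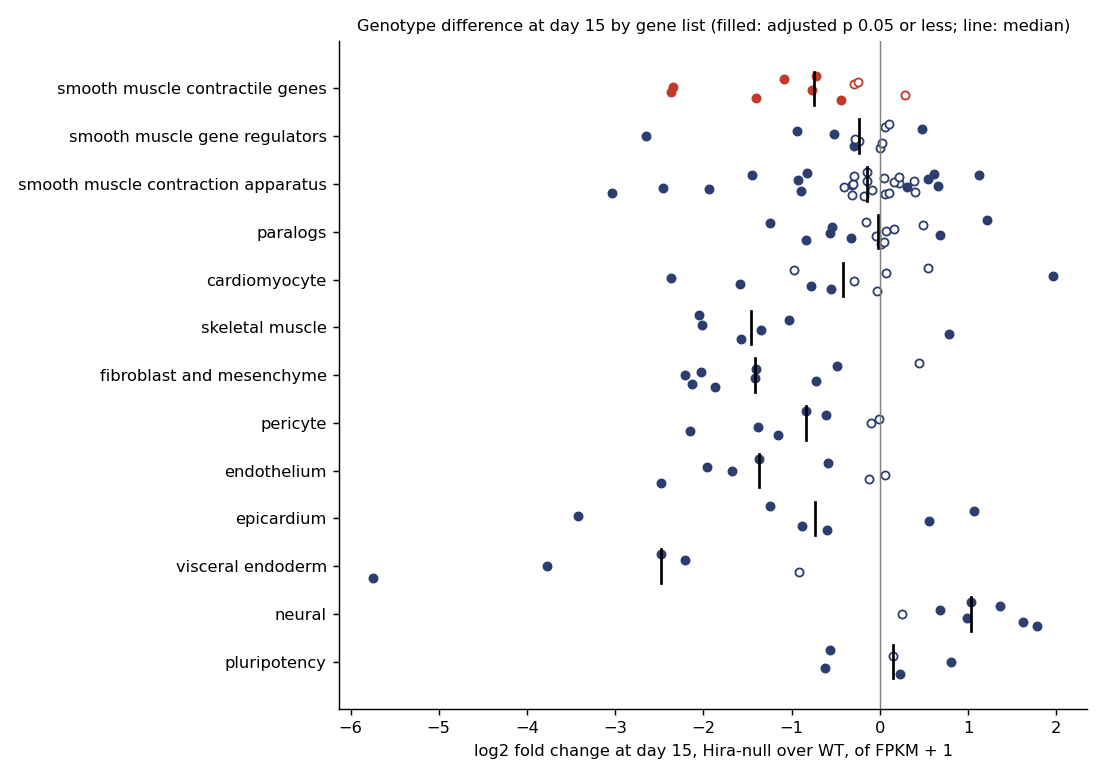
Log2 fold change of FPKM + 1 at day 15, Hira-null over WT (horizontal axis), for the tested genes of 13 lists (rows), with filled points where the adjusted p was 0.05 or less and a line at the median of each list. The height of a point within its row has no meaning. The line of the smooth muscle contractile genes is at −0.75, that of the fibroblast and mesenchyme markers at −1.41 and that of the neural markers at 1.03.

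The genes whose pattern over the 8 libraries was most like *Acta2* were found by the root mean square difference of log2(FPKM + 1), each gene centred on its own mean. They were *Pcdh18* (0.139), *Peg3* (0.163), *Nrp1* (0.191), *Fbn2* (0.192) and *Inhba* (0.238), each far nearer to *Acta2* than the closest member, *Actg2* (0.786). For *Myocd* they were *Tanc2* (0.0918), *Akap5* (0.106), *Mir22hg* (0.111), *Ilk* (0.112) and *Hif1a* (0.118), and the closest member was *Lmod1* (0.292). This measure over so few libraries is dominated by the step between the days. Among the members the nearest pair was *Myocd* and *Lmod1*, and the next was *Mylk* and *Cald1* (0.417).

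Promoters were then read for the members that rose with differentiation, since their shared regulation is known to pass through CArG boxes. The RefSeq promoter table, in the GRCm38.p6 build, held 7 windows for 6 of the members, from 250 bases before the start of a transcript to 50 bases after it. *Tagln*, *Myh11*, *Myocd* and *Actg2* were not matched. A CArG box was searched on both strands as 10 bases, CC, then 6 bases that are each A or T, then GG. It was in 0 of the 7 windows and in 1.63% of 32851 promoters of the table. With at most 1 G or C among the 6 core bases, a match was found in the *Acta2* window alone, where it occurred at 2 places, and in 9.98% of all promoters. The MCAT element CATTCC, bound by TEAD factors, was in 5 of the 7 windows, those of *Acta2*, *Lmod1*, *Mylk*, *Smtn* and 1 of *Cald1*, and in 14.66% of all promoters. These relaxed and MCAT searches were chosen after the sequences had been seen, and no match overlapped another. A match is a description and does not by itself show whether a factor binds there. The 250 bases before the start are shown for *Acta2*, the highest member, and for *Smtn*, which holds an MCAT match alone. They are also shown for *Cnn1*, which had the lowest log2 fold change of the members at day 15 and holds no match. Capitals mark matches to the relaxed CArG box and to MCAT.
Acta2 (chr19:34255374-34255623, minus strand): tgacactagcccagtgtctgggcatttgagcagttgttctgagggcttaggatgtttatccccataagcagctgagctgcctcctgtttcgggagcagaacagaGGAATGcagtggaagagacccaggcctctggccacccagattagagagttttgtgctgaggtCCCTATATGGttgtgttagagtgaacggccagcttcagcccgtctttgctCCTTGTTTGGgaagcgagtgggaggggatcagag
Smtn (chr11:3539293-3539542, minus strand): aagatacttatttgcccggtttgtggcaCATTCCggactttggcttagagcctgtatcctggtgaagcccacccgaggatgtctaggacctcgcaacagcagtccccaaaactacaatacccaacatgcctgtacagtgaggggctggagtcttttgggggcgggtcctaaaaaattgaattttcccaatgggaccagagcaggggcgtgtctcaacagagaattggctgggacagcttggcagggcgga
Cnn1 (chr9:22099003-22099252, plus strand): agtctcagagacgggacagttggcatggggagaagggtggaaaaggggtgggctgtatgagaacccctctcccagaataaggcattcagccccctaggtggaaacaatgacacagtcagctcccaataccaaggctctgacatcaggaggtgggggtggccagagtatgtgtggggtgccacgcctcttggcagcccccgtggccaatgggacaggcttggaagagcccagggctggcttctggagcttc
In *Acta2* the relaxed CArG matches ran from 84 to 75 and from 34 to 25 bases before the RefSeq start of this window. The MCAT match ran from 146 to 141 bases before that start, and distances from another start would differ.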

How the data were processed

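Messenger RNA of 8 libraries, in 4 groups of 2 described as separate biological samples, was analysed from one table. Paired-end libraries came from a stranded kit. The authors aligned the reads to mm9 with Bowtie (version 0.12.2, per the submitters' processing notes) and deposited FPKM of 24421 genes. The tool that counted fragments and the annotation are not given in the sources used here. The authors' own comparison tables (DESeq2, version 1.6.3), which hold fold changes and p-values, were not used. 

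FPKM values were read as whole multiples of one step per gene and library. The fragments of a gene were the smallest whole numbers found in proportion to its depth-scaled values. That 100% of values lay within 0.1 of a fragment followed from this search and is no check on it. The search gave whole fragments for 17477 genes, 6896436 to 11087816 per library with a median of 8764389. It left out 1657 genes above 0 in 1 or 2 libraries. These fragments cover counting error only. Replicates differed by more than counting gives, with a chi-square of 2.76 to 5.45 per degree of freedom. Gene symbols turned into dates, 27 in all, were not used.

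Values were fitted as log2(FPKM + 1) with limma 3.58.1 in R 4.3.3, on the 14337 genes that reached FPKM 1 in 2 or more libraries, as 4 group means. Libraries of day 15 had a weight of 0.968 and those of day 0 one of 1.03. The variance followed an empirical Bayes trend, and p-values were adjusted over all genes by Benjamini-Hochberg. The pseudocount understates changes of low genes. The code of the fit was run on simulated data with independent normal noise, whose spread depended on the mean level of a gene alone. Changes were planted only in genes above a low level, so this run does not check the fit for members near the floor. Alternatives were pseudocounts of 0.1 and 5, no filter, a filter in 4 libraries, TPM and median-ratio scaling, equal weights, a replicate block, only the groups compared, each library left out and, chosen after seeing the data, limma voom on the recovered fragments. No count test was run on FPKM. Errors of fold changes are SE.

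The members, the gene lists and the tests were chosen with earlier results of these data known. Besides the members and *Hira*, all regulators and paralogs could be named, the 8 apparatus genes of highest mean FPKM and those called by 2-fold or more, up to 3 markers of highest mean FPKM per cell type, and the 5 genes most like *Acta2* and *Myocd*. Positions and coding sequences are from the NCBIM37 (mm9) annotation of GENCODE M1, aligned with Biopython 1.88, and promoters from RefSeq.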

Additional observations from a re-analysis of the deposited data

Results flagged for a closer look

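Genotype effects that differed between the days were singled out by the test of that difference (log2, day 15 minus day 0, adjusted p of 0.05 or less). They were *Tagln* at 0.78 and *Cald1* at 0.93, whose effect was higher at day 15, and *Myh11* at −2.09, *Actg2* at −1.60, *Cnn1* at −1.20 and *Smtn* at −0.69, whose effect was lower at day 15. *Myh11* and *Actg2* were under FPKM 1 in every day 0 library, where this scale can show little of a genotype effect, so their values are a description. The day 15 libraries labelled *Hira*-null are not set apart by their level of *Hira*, so the direction is that of the labels. Groups of 2 libraries are too small for a search for single libraries that stand apart.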

How the results depend on the processing

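Of 725 values of the members under alternatives, 685 kept their direction and their side of the threshold. The members higher at day 15 were 1 in place of 0 when only the groups compared were fitted and with voom (*Cald1*), and those higher at day 0 were 1 in place of 0 with a pseudocount of 0.1 (*Mylk*) and 0 to 1 with a day 0 library left out (*Actg2*). The members lower at day 15 than at day 0 in *Hira*-null were 0 to 1 with a library left out (*Smtn*), and those with a lower genotype effect at day 15 were 2 to 4 with a library left out and 2 to 5 over all alternatives. The members lower at day 15 than in WT ranged from 6 to 8 over all alternatives. Directions turned for *Actg2* at day 0 (−0.11 to 0.51 with a library left out), *Lmod1* at day 0 (−0.48 to 0.035 with a library left out), *Cnn1* between days in *Hira*-null (−0.22 to 0.48 with a library left out), *Smtn* between days in *Hira*-null (0.28 under TPM scaling) and *Myocd* between the genotype effects (−0.020 with a pseudocount of 5). *Myh11* was not tested with the filter in 4 libraries. Over all genes tested, those higher and lower at day 15 against WT fell to 1323 and 1280 without WT replicate 1 and to 1261 and 1370 without WT replicate 2. At day 0 they were 1869 and 1837 without *Hira*-null replicate 1, and 1974 were higher without *Hira*-null replicate 2. Genes with a higher effect at day 15 were 1422 without day 15 WT replicate 1 and 1587 without day 15 WT replicate 2, and those with a lower effect were 1471 without day 15 WT replicate 1. Replicate numbers did not pair the libraries (correlations of deviations from −0.10 to 0.05), and the replicate block left all 50 member calls as they were, with 7 members lower at day 15. At day 0 fewer than 30 fragments in every library stood behind *Myh11*, *Myocd*, *Actg2* and *Mylk*, which limits what could be seen there. *Lmod1* had 28 fragments in *Hira*-null mESC replicate 2.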
